A study of Mus musculus with 4 samples.

Results

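Deoxyribonucleases and ribonucleases are the enzymes that cut DNA and RNA. Dnase1 and 5 other nuclease genes were followed through Visium spatial transcriptomics of mouse kidney: Dnase1, Dnase1l3, Dnase2a, Rnase4, Rnaset2b and Trex1, 6 of the 32285 genes in the files, matched by symbol. They were chosen by a measured value, their level in whole Uox_KO sections against whole Control sections, in these same data. That difference is therefore given below as values with no test, and the tests concern only where the transcripts lay within a section and listed genes outside the 6. Those lists were also drawn up with earlier results of these data known, so their tests are not independent of the data. The Uox_KO group was 2 male mice on the C57BL/6J background that lack exons 2 to 4 of Uox, and the Control group was 2 male wild-type mice of that background. Uox encodes urate oxidase, the enzyme that degrades urate, and the line is kept as a model of high urate. The labels number the mice, with 1 kidney section of 10 µm each and n = 2 sections a group, and give no age, littermate or run.

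Dnase1 encodes a secreted endonuclease that digests double-stranded DNA outside cells. The mouse kidney is one of its main sources and releases it into urine. Dnase1l3 is a related secreted enzyme, known from macrophages and dendritic cells, that can cut DNA still packed in chromatin. Dnase2a is the acid DNase of lysosomes, which degrades the DNA of engulfed cells, and Rnaset2b is an acid RNase of the same compartment. Rnase4 is a small secreted RNase of the family of pancreatic ribonuclease, and Trex1 is an exonuclease that removes DNA from the cytosol.

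Section totals were 93524222 and 107962997 UMIs (unique molecular identifiers, each standing for 1 captured transcript) in Control, and 53897511 and 57230517 UMIs in Uox_KO. Median UMIs a spot lay between 16674 and 37386, and both Uox_KO sections were below both Control sections. The sections share 1713 barcodes, as slides of 1 barcode set do. Uox had 0 UMIs in every section, Control included, so it could not check the genotypes. In whole sections the summed level of 12 macrophage markers was 114 and 105 CPM (the counts-per-million scale, UMIs relative to the total of the section) in Control and 1611 and 1284 in Uox_KO, with no marker at 0. That of 7 stroma markers was 103 and 88.0 in Control against 1339 and 1018 in Uox_KO, and that of 6 injured tubule markers 457 and 521 against 8720 and 7916. The 7 markers of the proximal tubule segments S1 and S2 summed to 2396 and 2309 in Control and 997 and 1130 in Uox_KO. In tissue sections, fewer cells of a type and less RNA per cell cannot be told apart.

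Promoter windows were found for 5 of the 6 genes (250 bases before to 50 after a transcript start, RefSeq, GRCm38.p6). The windows of Dnase1, the gene that was lower in Uox_KO, and of Dnase2a and Rnase4, which were higher, are shown because the results turn on these genes. Capitals mark each match, on either strand, to the TATA box TATAAA, the GC box GGGCGG, the nuclear receptor site AGGTCA, the HNF1 site GTTAAT, the AP-1 motif TGANTCA or the STAT motif TTCNNNGAA.
Dnase1, chr16:4036786-4037085, plus strand: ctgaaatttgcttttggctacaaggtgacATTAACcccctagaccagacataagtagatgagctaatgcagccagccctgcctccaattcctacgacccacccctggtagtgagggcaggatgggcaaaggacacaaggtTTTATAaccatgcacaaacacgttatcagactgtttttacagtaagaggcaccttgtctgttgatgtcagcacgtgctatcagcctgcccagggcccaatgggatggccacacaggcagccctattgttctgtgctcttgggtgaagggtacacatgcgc
Dnase2a, chr8:84908505-84908804, plus strand: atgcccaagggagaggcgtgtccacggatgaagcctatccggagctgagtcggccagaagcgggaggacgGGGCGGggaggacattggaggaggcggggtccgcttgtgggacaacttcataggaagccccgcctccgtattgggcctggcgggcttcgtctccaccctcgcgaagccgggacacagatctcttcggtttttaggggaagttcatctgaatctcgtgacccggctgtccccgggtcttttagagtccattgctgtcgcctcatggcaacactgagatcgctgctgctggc
Rnase4, chr14:51090827-51091126, plus strand: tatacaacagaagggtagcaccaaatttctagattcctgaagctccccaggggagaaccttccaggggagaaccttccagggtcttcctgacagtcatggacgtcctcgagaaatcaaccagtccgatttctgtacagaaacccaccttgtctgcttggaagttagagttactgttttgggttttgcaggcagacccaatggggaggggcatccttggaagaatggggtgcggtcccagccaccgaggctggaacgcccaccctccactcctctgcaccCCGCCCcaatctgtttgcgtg
The Dnase1 window held GTTAAT and TATAAA, each once and on the minus strand. GTTAAT occurs in 7.10% and TATAAA in 13.6% of the 32851 windows of this length in the table. The Dnase2a and Rnase4 windows each held GGGCGG, which 35.7% of windows hold. A second, overlapping Dnase1 window, which starts at 4036895, held AGGTCA, found in 16.3% of windows. TGANTCA (7.81% of windows) and TTCNNNGAA (8.30%) matched none of these 4 windows. GC content was 51.0% in the first Dnase1 window, 61.7% in that of Dnase2a and 54.7% in that of Rnase4, beside a median of 52.7% over all windows. A match is a string of letters and was not tested as a binding site.

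Dnase1 is located on chromosome 16 at 4036958 to 4040024, and its 3' end overlaps Trap1. Dnase1l3 lies on chromosome 14 at 7965187 to 7994760, Dnase2a on chromosome 8 at 84908755 to 84911703 and Rnaset2b on chromosome 17 at 6978860 to 6998193. Rnase4 spans 51091077 to 51106151 of chromosome 14, and Ang, the angiogenin gene, starts at the same base and lies inside it. Trex1 lies on chromosome 9 at 109057932 to 109059723, within the annotated read-through gene Atrip-trex1. All coordinates are RefSeq on GRCm38.p6, the assembly behind mm10.

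Dnase1 stood at 1096 and 1023 CPM in the Control sections and at 72.4 and 80.1 in the Uox_KO sections (scaled by TMM, edgeR's correction for composition). The groups were far apart, while the sections of a group lay close together. The means were 1059.8 ± 51.8 (SD, n = 2) in Control and 76.3 ± 5.48 (SD, n = 2) in Uox_KO, 13.9-fold lower, a log2 difference of -3.80 ± 0.09 (SE). Behind these values were 93210 and 101157 Dnase1 UMIs in Control and 4351 and 4937 in Uox_KO. Ordered by log2 difference, Dnase1 was 31st from the lowest of 16369 genes tested, a place that follows from how it was chosen. As background, 34.6% of those genes were called higher in Uox_KO and 32.5% lower by edgeR's quasi-likelihood test at an adjusted p under 0.05.

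**Figure D1:**
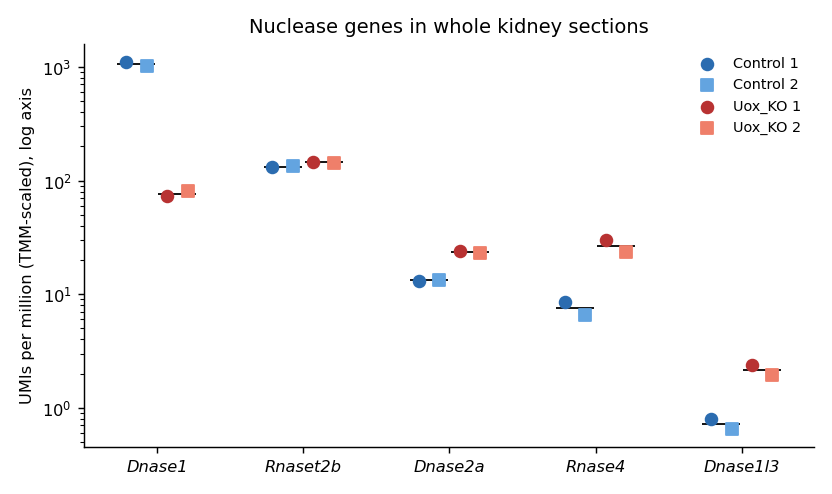
Each point is 1 section (blue Control, red Uox_KO; circles replicate 1, squares replicate 2) and each black line a group mean, in TMM-scaled CPM on a log axis, for the 5 genes with UMIs. Dnase1 sits near 1000 in Control and below 81 in Uox_KO, and the other 4 genes sit higher in Uox_KO; levels of different genes are not comparable here because they are not per length.

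The other nucleases of the 6 that were measured lay higher in Uox_KO, by far smaller amounts. Dnase1l3 was sparse, with 0.800 and 0.657 CPM in Control and 2.36 and 1.93 in Uox_KO, from 68, 65, 142 and 119 UMIs. That is 2.95-fold, a log2 difference of 1.56. Dnase2a stood at 13.2 and 13.3 in Control and 24.2 and 23.2 in Uox_KO, 1.79-fold (log2 0.84). Rnase4 stood at 8.54 and 6.56 in Control and at 29.9 and 23.6 in Uox_KO, 3.54-fold (log2 1.83). Ang, which shares the Rnase4 locus, went from 1.34 and 1.0 to 6.22 and 4.64 (log2 2.22), and how reads that fit both genes were counted was not tested.

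Rnaset2b differed little, from 131 and 133 CPM in Control to 144 and 144 in Uox_KO (1.09-fold, log2 0.13). Its near-identical copy Rnaset2a, also on chromosome 17, stood at 117 and 120 against 145 and 143 (log2 0.28). How reads that fit both copies were counted is uncertain. Trex1 had 0 UMIs in all 4 sections, which allows up to 0.0321 and 0.0278 CPM in Control and 0.0557 and 0.0524 in Uox_KO (3 counts of the total, counting error only). Trex1 lies within the annotated gene Atrip-trex1, and how reads were assigned between both was not tested. Nothing can therefore be said of the direction of Trex1. Scaling matters for the small values: without TMM the median log2 difference of all genes rose from 0.00 to 0.27, and the Rnaset2b difference from 0.13 to 0.39, Dnase2a to 1.10 and Dnase1 to -3.53.

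Dnase1 was nearly everywhere in the Control sections and patchy in the Uox_KO sections. With every spot thinned to 5000 UMIs, 98.1% of Control 1 spots (95% exact interval 97.4 to 98.6) and 97.6% of Control 2 spots (97.1 to 98.1) held at least 1 Dnase1 UMI. The Uox_KO shares were 25.7% (23.9 to 27.5) and 28.3% (26.5 to 30.1). Intervals cover counting error only, and 2 sections against 2 cannot reach a two-sided exact permutation p below 0.33. Thinning left out 6 and 4 spots in Control and 292 and 152 in Uox_KO for lack of depth. Without thinning the shares were 99.8% and 99.9% against 51.1% and 58.4%.

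The spread over spots differed as well. In Control the median spot held 9.68 and 9.05 Dnase1 UMIs per 10000, with SD over mean across spots of 0.356 and 0.386. In Uox_KO the median spot held 0.220 and 0.398, with SD over mean of 1.66 and 1.65, and the 90th percentile was 2.30 and 2.11. Single Uox_KO spots still reached 17.7 and 18.8 UMIs per 10000, above the Control medians, and up to 41 and 64 UMIs in a spot. Most Uox_KO spots were thus far below the Control median and a few above it. At so few UMIs a spot, counting alone adds to this spread, and that share was not separated.

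To place the transcripts, spots were called rich in a cell type or segment when they were in the top 10% of their section by the mean score of its markers. There were 20 marker lists and none contains any of the 6 genes. A spot covers several cells, so a rich spot is a region and not a cell type. Dnase1 levels in these sets are CPM of the set's own total. In Control, Dnase1 ranged only from 759 to 1299 across the 20 sets in section 1 and from 692 to 1247 in section 2, a span of 1.71-fold and 1.80-fold. In Uox_KO it ranged from 11.8 to 154 and from 32.9 to 171, spans of 13.0-fold and 5.2-fold. The lowest Uox_KO set in both sections was the fat-rich one. Fat markers summed to 14442 and 17979 CPM in it, and to 20.2 and 157 in the fat-rich spots of Control. The spans of the genotypes thus rest in part on unlike sets. The set rich in proximal S1/S2 markers was the highest in all 4 sections.

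**Figure D2:**
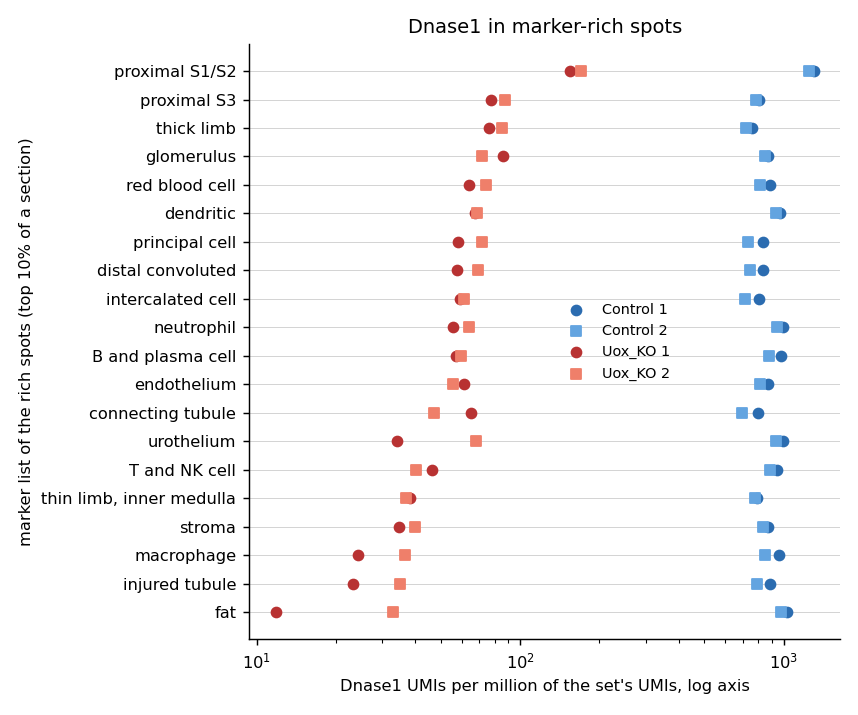
Dnase1 CPM of each set's UMIs (log axis) in the spots richest in each of 20 marker lists, 1 point a section (blue Control, red Uox_KO), ordered by the Uox_KO mean. The Control points form a narrow band with proximal S1/S2 at its top, 1299 and 1247; the Uox_KO points run from 11.8 in fat-rich spots to 171 in proximal S1/S2-rich spots. Fat, urothelium, neutrophil, dendritic and B cell markers are so rare in Control that most spots there tie, and those sets are close to arbitrary.

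Dnase1 lay towards the S1/S2 proximal tubule, the stretch that reabsorbs glucose, amino acids and phosphate from the filtrate, in both genotypes. Spots rich in S1/S2 markers (Slc5a2, Slc5a12, Slc6a19, Slc22a8, Slc22a6, Slc7a7 and Slc34a3) held 1299 and 1247 CPM of Dnase1 in Control, against 968 and 907 in all other spots. In Uox_KO they held 154 and 171, against 73.7 and 78.1. Both sections of each genotype showed the same direction. Slc22a6 went against its list in Control, with 795 and 846 CPM in these spots and 1117 and 1078 in whole sections. In Uox_KO it stood at 1188 and 1071 in these spots and 718 and 797 in whole sections. The other markers of the list were higher in these spots than in the whole section in both genotypes. The fitted difference (edgeR, section as block) was 0.42 ± 0.05 log2 units in Control, adjusted p = 3.9e-10, where 20.1% of all genes tested were called in either direction. It was 1.33 ± 0.06 in Uox_KO, adjusted p = 6.7e-27, where 29.6% were called.

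The S1/S2 bias was steeper in Uox_KO by 0.91 ± 0.08 log2 units (adjusted p = 1.5e-14, 17.2% of genes called for such an interaction). This test takes out the overall level of each section, which had chosen the gene. That level rests mostly on the other spots, so the choice may still bear on this and the other interaction values. Its part was not tested. The S1/S2 interaction kept its direction without TMM, at 0.66. The 7 markers that picked the spots summed to 3618 and 3555 CPM in the S1/S2-rich spots of Control, against 2396 and 2309 in whole sections. In Uox_KO they summed to 2186 and 2072, against 997 and 1130. The marker contrast of the sets was thus also steeper in Uox_KO, and Slc22a6 went opposite ways in both genotypes, as given above. The part of these marker differences in the Dnase1 difference was not tested. S1/S2-rich spots made up 8.63% and 8.85% of Control UMIs and held 11.2% and 11.8% of Dnase1 UMIs. In Uox_KO they made up 8.76% and 8.82% of UMIs and held 16.7% and 17.5% of Dnase1 UMIs. Over deciles of the S1/S2 score, Dnase1 went from 743 and 662 CPM in the lowest to 1299 and 1247 in the highest in Control, and from 22.9 and 14.4 to 155 and 171 in Uox_KO. The end-to-end ratio was 1.75 and 1.88 in Control and 6.76 and 11.9 in Uox_KO.

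S1/S2-rich spots of Uox_KO still held far less Dnase1 than the S1/S2-poorest spots of Control. Between genotypes Dnase1 in S1/S2-rich spots was 7.83-fold lower, and the markers of the same spots were 7.30-fold lower or less. Those spots were picked by these markers, which holds the markers up in both groups. In whole sections, on plain CPM, Dnase1 was 11.6-fold lower, Slc34a3 15.9-fold, Slc5a2 6.28-fold and Slc6a19 6.00-fold. In the S1/S2-rich spots Slc5a2, the glucose cotransporter of the early proximal tubule, stood at 943 and 936 in Control and 261 and 281 in Uox_KO, 3.46-fold lower. Slc6a19, a neutral amino acid transporter, was 4.13-fold lower, Slc5a12 2.69-fold, Slc7a7 2.62-fold and Slc22a8 1.60-fold. Slc34a3, a phosphate cotransporter, was 7.30-fold lower, from 103 and 88.0 to 9.96 and 16.2. Slc22a6, the organic anion transporter, went the other way, from 795 and 846 to 1188 and 1071. These are levels side by side, with no test, since they follow the contrast that chose Dnase1. In the same spots the injured tubule markers summed to 596 and 565 in Control and 6103 and 6262 in Uox_KO, and their part in the Dnase1 level was not tested.

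Among other tubule segments, spots rich in distal convoluted tubule markers held less Dnase1 than the rest of the section in both genotypes, and thick limb-rich spots held less in Control. In Control, thick limb-rich spots stood at 759 and 720.5 CPM against 1024 and 962 elsewhere. That difference was -0.52 ± 0.03 log2 units (adjusted p = 2.0e-09, 17.9% of genes called). In Uox_KO the thick limb difference was -0.05 (adjusted p = 0.51, 21.1% called), and it was called lower with the top 5% of spots (-0.24) or with a score of marker UMI share (-0.28). Spots rich in distal convoluted tubule markers were lower in both genotypes, by -0.47 (adjusted p = 1.4e-05, 30% called) in Control and by -0.42 (adjusted p = 0.00077, 32.3% called) in Uox_KO. Spots rich in proximal S3 markers, the straight end of the proximal tubule, stood at 809 and 787 in Control and 77.4 and 87.9 in Uox_KO, beside section levels of 996.6 and 937 in Control and 80.7 and 86.3 in Uox_KO.

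**Figure D3:**
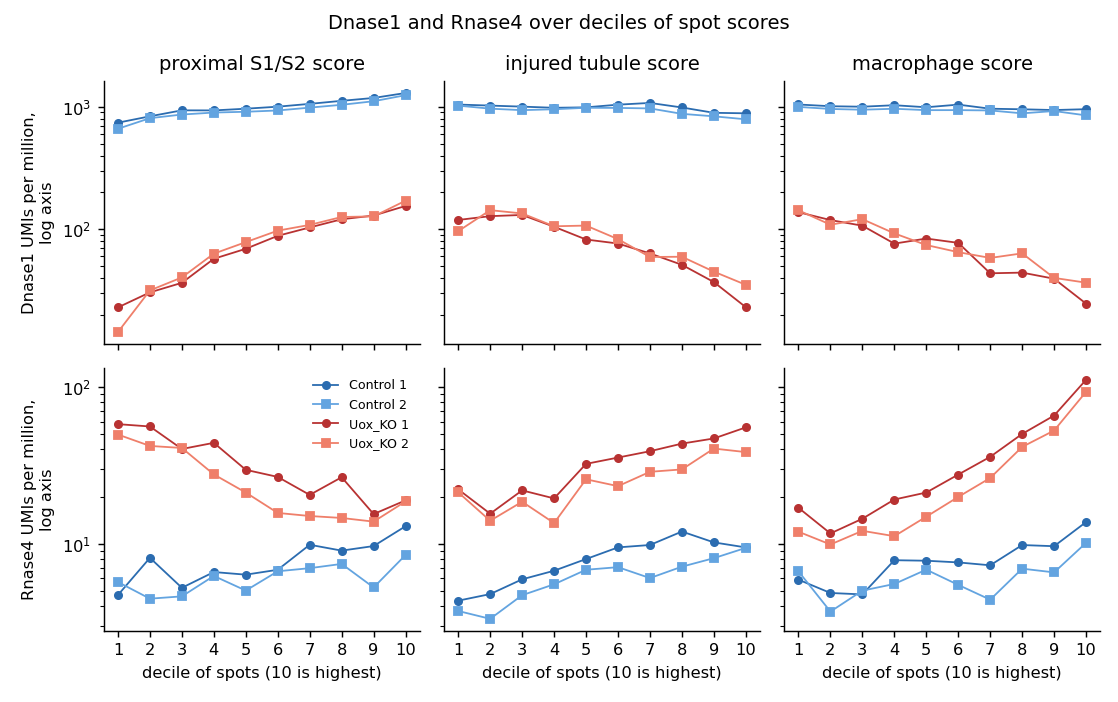
CPM (log axis) of Dnase1 (top row) and Rnase4 (bottom row) over deciles of spots ordered by the proximal S1/S2, injured tubule and macrophage scores, 1 line a section (blue Control, red Uox_KO). Dnase1 climbs with the S1/S2 score in Control (743 and 662 to 1299 and 1247) and in Uox_KO (22.9 and 14.4 to 155 and 171), and in Uox_KO its last decile lies below its first for the injury and macrophage scores; Rnase4 in Uox_KO climbs with the macrophage score to 111 and 93.2.

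In Uox_KO, Dnase1 was lowest in fat-rich spots (11.8 and 32.9 CPM), and it was also low in spots rich in injured tubule, macrophage and stroma markers. Injured tubule markers here are Havcr1, Lcn2, Krt20, Sox9, Krt18 and Spp1, genes that tubule cells raise after damage. Spots rich in them held 23.1 and 35.0 CPM of Dnase1 in Uox_KO against 88.4 and 93.4 elsewhere, a difference of -1.97 ± 0.10 log2 units (adjusted p = 2.6e-08, 43.5% of genes called). In Control the values were 886 and 791 against 1007 and 951, a difference of -0.39 (adjusted p = 0.0016, 24.6% called). With either Control section left out, that Control call was lost (adjusted p = 0.067 and 0.17). From the lowest to the highest injury decile, Dnase1 in Uox_KO went from 119 and 96.2 to 23.0 and 35.0.

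Macrophage-rich spots held 24.3 and 36.4 CPM of Dnase1 in Uox_KO against 85.5 and 90.3 elsewhere (-2.08 ± 0.10 log2 units, adjusted p = 6.1e-11, 56.4% of genes called). In Control they held 959 and 852 against 1000.5 and 945 (-0.27, adjusted p = 0.0021, 23.1% called), a call that was lost without either Control section (adjusted p = 0.21 and 0.43) and without TMM (0.16). The Uox_KO difference minus the Control difference was -1.81 ± 0.12 log2 units (adjusted p = 1.3e-08, 29.3% called), and -1.43 without TMM. Macrophage markers summed to 357 and 329 CPM in the macrophage-rich spots of Control and to 7424 and 6962 in those of Uox_KO. Macrophage-rich spots were thus unlike in marker content between genotypes, and the part of that in the difference was not tested. Stroma-rich spots gave -0.45 in Control (adjusted p = 0.0001, 38.8% called) and -1.74 in Uox_KO (adjusted p = 4.6e-10, 54.7% called). Spots rich in T and NK cell markers gave -1.39 in Uox_KO (adjusted p = 3.5e-14, 47.7% called). These sets overlap one another, and the summed levels of their markers were all higher in Uox_KO, so the lists are not separate tests.

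Uox_KO spots with a Dnase1 UMI after thinning (605 and 690 spots) were compared with those without (1752 and 1748). The spots with Dnase1 held more S1/S2 marker UMIs, 1400.4 and 1477 CPM against 849 and 992. They held fewer injured tubule marker UMIs, 5293 and 6027 against 10095 and 8710, and fewer macrophage marker UMIs, 946 and 850 against 1841 and 1447. Rnase4 was 19.9 and 19.3 CPM in spots with Dnase1 and 37.8 and 27.3 in spots without, and Dnase2a 20.9 and 22 against 28.5 and 25.7. Both sections agreed in direction for each. Median depth was 21656 and 22044 UMIs in spots with and 18522 and 20526 in spots without. The directions were the same in Control, where 49 and 79 spots had no Dnase1 UMI. There, S1/S2 markers summed to 2408 and 2323 CPM in spots with and 1827 and 1719 in spots without. Injured tubule markers summed to 453 and 516 against 696 and 728, and macrophage markers to 114 and 105 against 131 and 126. Rnase4 was 7.76 and 5.97 against 8.06 and 7.57, and Dnase2a 11.9 and 12.1 against 14.5 and 13.5.

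As a reference outside the tubule, glomerulus-rich spots held a Dnase1 UMI in 97.2% and 96.1% of thinned Control spots and in 25.6% and 29.2% of Uox_KO spots. S1/S2-rich spots held one in 100% and 99.7% in Control and 39.6% and 42.9% in Uox_KO. Macrophage-rich spots held one in 98.0% and 96.1% in Control and only 8.13% and 14.4% in Uox_KO. The glomerular share was therefore near the share of all spots in every section, and below that of S1/S2-rich spots. A spot also covers neighbouring tubule, and the part of that or of free RNA in these shares was not tested.

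The genes whose pattern over spots was most like that of Dnase1 were ranked in each genotype. Likeness is the lower of both sections' Pearson correlations of log UMIs per 10000, over all spots of a section, which share libraries and depth, so it is a description. In Control, Slc34a1, the main phosphate cotransporter, came first of 8514 genes (r = 0.57 and 0.60), and Cltrn, Gpx3, Ndrg1, Ass1, Igfbp4 and Tcn2 were among the next. In Uox_KO, Cyp4b1 came first of 7945 genes (r = 0.43 and 0.44), and Miox, Sord, Acsm2, Akr1c21, Ass1 and Slc34a1 were among the next. Ass1 and Slc34a1 were among the genes on both lists. Ranking by Spearman kept 7 of the 8 in Control and 6 of the 8 in Uox_KO. All correlations of the other members with Dnase1 were weak. Rnaset2b stood at -0.15 and -0.16 in Control and at 0.05 and 0.02 in Uox_KO. Dnase2a stood at 0.03 and 0.01 in Control and at -0.08 and -0.06 in Uox_KO, and Rnase4 at -0.17 and -0.15 in Uox_KO.

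Rnase4 lay in stroma-rich and macrophage-rich spots, and its place in the proximal tubule differed between genotypes. Stroma-rich spots held 18.1 and 14.5 CPM of Rnase4 in Control against 6.98 and 5.33 elsewhere, and 117 and 100.2 in Uox_KO against 28.2 and 21.0. The fitted differences were 1.15 ± 0.11 (adjusted p = 7.3e-07) and 1.61 ± 0.08 (adjusted p = 8.1e-11). Macrophage-rich spots held 13.7 and 10.1 in Control against 7.23 and 5.64, and 110 and 93.2 in Uox_KO against 26.9 and 19.9. That is 0.72 ± 0.11 (adjusted p = 0.00039) and 1.59 ± 0.08 (adjusted p = 6.0e-11), and the macrophage difference was larger in Uox_KO by 0.87 ± 0.13 (adjusted p = 8.5e-05).

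In S1/S2-rich spots Rnase4 was above the other spots in Control, 12.9 and 8.48 against 7.28 and 5.77, and below them in Uox_KO, 18.8 and 18.6 against 34.7 and 26.1. The Control difference was 0.68 (adjusted p = 3.1e-05), not called without Control section 1 (0.54, adjusted p = 0.062). The Uox_KO difference was -0.46 (adjusted p = 0.0011), not called without Uox_KO section 1 (-0.29, adjusted p = 0.20). The difference between them, -1.14 ± 0.17 log2 units, was called (adjusted p = 4.3e-07), also with any 1 section left out. Rnase4 in S1/S2-rich spots was still higher in Uox_KO than in Control. Over macrophage deciles of Uox_KO it went from 17.0 and 11.9 CPM in the lowest to 111 and 93.2 in the highest, and in Control from 5.90 and 6.67 to 13.7 and 10.1. The Rnase4 positions rest on 649 to 1797 UMIs a section.

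Dnase2a was biased towards macrophage-rich spots in Uox_KO. In Control, macrophage-rich spots held 13.2 and 14.1 CPM of Dnase2a against 11.9 and 12.0 elsewhere, a fitted difference of 0.03 ± 0.10 (adjusted p = 0.86). In Uox_KO they held 51.1 and 49.8 against 24.9 and 22.9, a difference of 0.53 ± 0.09 (adjusted p = 6.8e-05). The difference between the genotypes was 0.50 ± 0.13 (adjusted p = 0.0090), lost without Control section 1 (0.46, adjusted p = 0.093). In the lowest macrophage decile of Uox_KO, Dnase2a stood at 12.4 and 13.8, next to 11.6 and 11.2 in that decile of Control. In the highest decile it stood at 51.3 and 49.8 in Uox_KO and 13.2 and 14.1 in Control. So the Dnase2a levels of both genotypes lay close together where macrophage markers were lowest and far apart where they were highest. Macrophage marker content and other features of those spots move together, and their separate parts were not tested.

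In the S1/S2-rich spots of Control, Dnase2a stood at 17.1 and 16.4 CPM against 11.5 and 11.7 (0.50 ± 0.10, adjusted p = 6.6e-05). In Uox_KO it stood at 26.0 and 26.0 against 27.1 and 24.8 (0.23, adjusted p = 0.080). With a score of marker UMI share that Uox_KO value turned to -0.42. The S1/S2 difference between genotypes was -0.27 and not called (adjusted p = 0.21). Dnase2a in T and NK-rich spots (0.52, adjusted p = 0.00012) and in stroma-rich spots (0.44, adjusted p = 0.0013) of Uox_KO was above the rest of the section, and in the corresponding Control spots it was not called (adjusted p = 0.57 and 0.30; 17.5% of genes called for T and NK in Control).

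Dnase1l3 lay in immune-rich spots in both genotypes. Macrophage-rich spots held 2.20 and 1.78 CPM of Dnase1l3 in Control against 0.595 and 0.495 elsewhere, from 17 and 16 UMIs, and 9.99 and 11.9 in Uox_KO against 2.01 and 1.28, from 42 and 51 UMIs. The fitted differences were 1.69 ± 0.34 (adjusted p = 0.0022) and 2.21 ± 0.24 (adjusted p = 8.0e-07), and they did not differ detectably between genotypes (0.52 ± 0.39, adjusted p = 0.36). In spots rich in T and NK cell markers the differences were 1.68 (adjusted p = 0.00048; 1.40, adjusted p = 0.17 without Control section 1) and 2.67 (adjusted p = 2.2e-10).

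Spots rich in dendritic cell markers (Flt3, Xcr1, Clec9a, Itgae, Siglech and Ccr9) gave the largest Dnase1l3 difference among the 20 lists in Uox_KO, 2.82 ± 0.24 log2 units (adjusted p = 1.0e-09, 24.4% of genes called). They held 10.9 and 12.1 CPM against 1.71 and 1.18 elsewhere. As plain CPM, T and NK-rich spots held the most Dnase1l3 of the 20 sets in both Uox_KO sections, 14.2 and 13.4. In Control the dendritic set was close to arbitrary, with 2318 of 2528 and 3125 of 3362 spots within 0.1 SD of its edge. Dnase1l3 gave 1.0 in that Control set (adjusted p = 0.996, 0.127% of genes called). In S1/S2-rich spots Dnase1l3 was 1.61 and 0.733 in Control and 1.06 and 0.793 in Uox_KO, on 4 to 13 UMIs a section. The difference between genotypes there was -2.06 ± 0.65 (adjusted p = 0.019), lost without Control section 1 (-1.50, adjusted p = 0.39) or without Uox_KO section 1 (-2.18, adjusted p = 0.063).

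**Figure D4:**
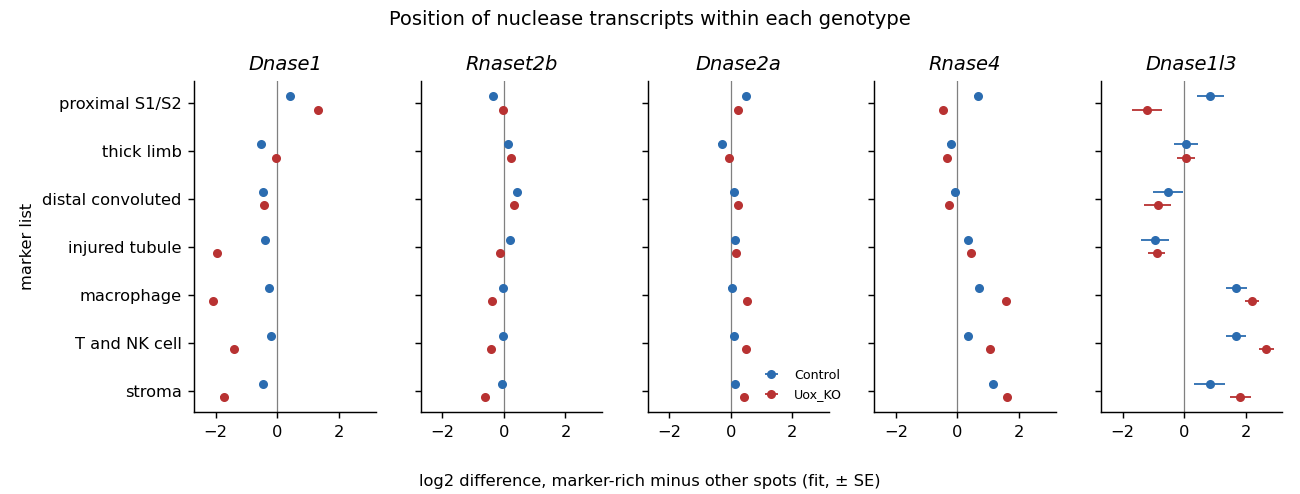
Fitted log2 difference between marker-rich and all other spots (x axis, ± SE), for 5 nuclease genes and 7 marker lists, in Control (blue) and Uox_KO (red). Dnase1 in Uox_KO lies to the right for proximal S1/S2 (1.33) and far to the left for injured tubule, macrophage, T and NK cell and stroma lists (-1.97, -2.08, -1.39 and -1.74), while Rnase4 and Dnase1l3 lie to the right for the immune and stroma lists.

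Rnaset2b lay between 96.6 and 170 CPM across the 20 sets in Control section 1 and between 99.1 and 181 in section 2. In Uox_KO it lay between 75.1 and 192 and between 84.5 and 211, lowest in fat-rich spots. It was highest in spots rich in connecting tubule markers in all 4 sections. Distal convoluted tubule-rich spots held 165 and 180 in Control against 114 and 116 elsewhere (0.43, adjusted p = 0.00023), and 181 and 209 in Uox_KO against 159 and 150 (0.34, adjusted p = 0.0032). The Control call was lost without Control section 2 (0.37, adjusted p = 0.075) and the Uox_KO call without Uox_KO section 2 (0.07, adjusted p = 0.48). S1/S2-rich spots of Control held less, 96.6 and 99.1 against 121 and 124 (-0.35, adjusted p = 6.2e-07).

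The Rnaset2b differences in immune and stroma sets of Uox_KO turned on the scaling. Macrophage-rich spots held 182 and 163 CPM against 159 and 154, higher as plain values, yet the TMM-scaled fit gave -0.40 (adjusted p = 6.2e-05) and the unscaled fit 0.14 (adjusted p = 0.032). Without TMM, the median of all genes in that comparison moved from 0.01 to 0.55, so Rnaset2b lay below most genes of these spots without falling in its share of UMIs. The same shift was 0.53 in stroma-rich and 0.39 in T and NK-rich spots of Uox_KO, and -0.26 in its S1/S2-rich spots. For Dnase1, Rnase4, Dnase2a and Dnase1l3 in macrophage-rich spots of Uox_KO, the direction was the same with and without TMM. The unscaled values were -1.53 for Dnase1, 2.13 for Rnase4, 1.08 for Dnase2a and 2.75 for Dnase1l3.

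Nuclease genes outside the 6 were called in both directions. The lists were drawn up with earlier results of these data known, and most genes named below were picked by smallest p in this same test. Of 22 other DNases and DNA nucleases 20 were tested, and 8 were higher and 2 lower in Uox_KO, with a median log2 difference of 0.11 beside 0.00 over all genes tested. Without TMM the split was 12 higher and 1 lower. Of 35 other RNases 32 were tested, with 14 higher and 10 lower and a median of 0.07, and without TMM 17 were higher and 3 lower. Over all genes the split went from 5665 higher and 5325 lower to 8156 and 2926. The shares called higher, 40.0% of the DNases and 43.8% of the RNases, are near the 34.6% of all genes. Nucleases that moved opposite to Dnase1 were thus not set apart by their count. Called lower were 10% of the DNases and 31.25% of the RNases, beside 32.5% of all genes.

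Pld4, a lysosomal exonuclease of myeloid cells that removes single-stranded nucleic acid, had the smallest p of the DNase list. It stood at 4.06 and 4.18 CPM in Control and 45.4 and 40.9 in Uox_KO, a log2 difference of 3.39 ± 0.08 (edgeR adjusted p = 1.3e-06). Samhd1, which hydrolyses nucleotides and limits DNA synthesis in myeloid cells, went from 10.6 and 10.2 to 24.5 and 24.6 (1.24 ± 0.06, adjusted p = 9.6e-06). Tatdn2 rose by 1.10 (adjusted p = 4.3e-05) and Apex1, the endonuclease of base excision repair, by 0.44 (adjusted p = 0.00096). Endog, a mitochondrial endonuclease, fell from 62.0 and 63.1 to 36.6 and 38.3 (-0.74 ± 0.06, adjusted p = 4.7e-05). Tatdn3 fell by 0.55 (adjusted p = 0.0042), which was not called without TMM (-0.29, adjusted p = 0.053). Dnase1l1 and Dnase1l2, the closest relatives of Dnase1 outside the 6, were chosen here for that kinship: Dnase1l1 stood at 6.72 and 6.75 against 9.62 and 8.36 (0.42, adjusted p = 0.0074), and Dnase1l2 at 2.00 and 2.49 against 3.06 and 2.27 (0.24, adjusted p = 0.30).

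Among the RNases, Rnaseh2a, the catalytic subunit of the enzyme that removes RNA from DNA hybrids, rose from 10.5 and 10.8 to 15.9 and 15.6 CPM (0.57 ± 0.07, adjusted p = 0.00034). Xrn1, the main exonuclease of messenger RNA decay, rose by 0.48 (adjusted p = 0.0013), N4bp1 by 0.47 (adjusted p = 0.0013) and Eri1 by 0.45 (adjusted p = 0.0017). Lactb2, a mitochondrial endoribonuclease, fell from 465 and 424 to 301 and 312 (-0.54 ± 0.07, adjusted p = 0.00077). Smg6, the endonuclease of nonsense-mediated decay, fell by 0.47 (adjusted p = 0.00093).

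**Figure D5:**
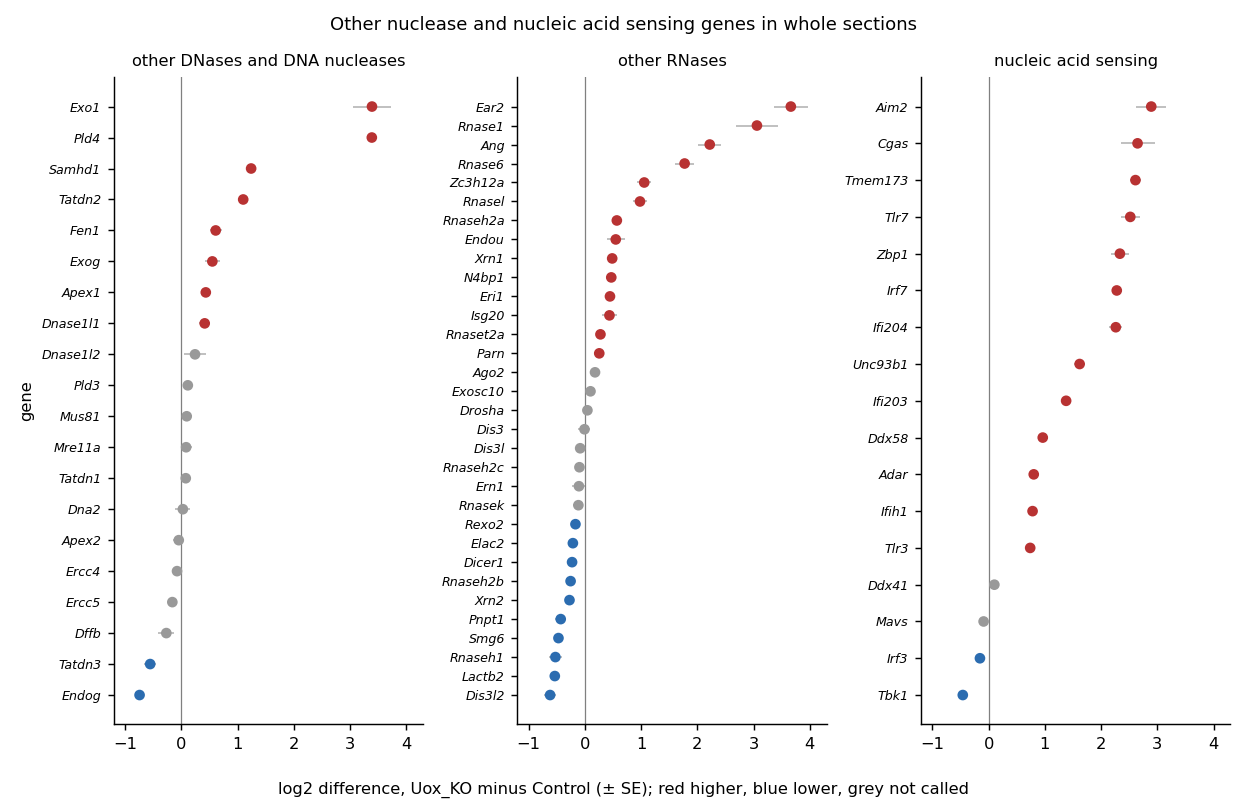
Log2 difference of Uox_KO minus Control in whole sections (x axis, ± SE, 2 sections a group) for the listed nucleases outside the 6 and for nucleic acid sensing genes; red points were called higher, blue lower, grey not called at an adjusted p under 0.05. DNases split 8 higher to 2 lower, RNases 14 to 10, and sensing genes 13 to 2.

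Genes that bind nucleases or sense nucleic acids were followed as well, in lists drawn up and named from in the same way. Actb, whose protein in monomer form binds and inhibits DNase I, rose from 806 and 734 CPM to 2462 and 2346 (1.64 ± 0.09, adjusted p = 1.3e-05), and Actg1 rose by 0.71 (adjusted p = 0.00024). Gc, a plasma protein that binds actin monomers, went from 6.74 and 5.49 to 95.1 and 43.2 (3.50 ± 0.37, adjusted p = 0.00020), with the Uox_KO sections far apart. Of the 5 regulators, 3 were called higher and 0 lower, beside 34.6% higher and 32.5% lower over all genes tested. Rnh1, the ribonuclease inhibitor, and Dffa were not called (adjusted p = 0.39 and 0.080).

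Of 18 nucleic acid sensing genes 17 were tested, and 13 were higher and 2 lower, with a median log2 difference of 1.38. Over all genes tested 34.6% were higher and 32.5% lower, and without TMM the sensing genes split 14 higher to 1 lower. Irf7, a transcription factor of the interferon response, stood at 6.52 and 6.49 CPM in Control and 31.3 and 31.9 in Uox_KO (2.28 ± 0.06, adjusted p = 1.3e-06). Tmem173, which encodes STING, the adaptor of cytosolic DNA sensing, stood at 1.76 and 1.85 against 11.3 and 10.8 (2.61 ± 0.10, adjusted p = 3.7e-06). Unc93b1, which carries nucleic acid sensing Toll-like receptors to endosomes, rose by 1.62 (adjusted p = 1.8e-05), Ifi203 by 1.38 (adjusted p = 1.8e-05), Ddx58 by 0.96 (adjusted p = 0.00013) and Ifih1 by 0.78 (adjusted p = 0.00012). The 2 lower genes were Tbk1 (-0.46, adjusted p = 0.00090) and Irf3 (-0.15, adjusted p = 0.042). Only 1 lower call was left with DESeq2, with the replicate block, without mitochondrial transcripts, without TMM, and without Control section 1, Control section 2 or Uox_KO section 1. Macrophage markers were higher in the same sections, as given above, and their part in these differences was not tested.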

How the data were processed

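Fresh frozen kidney sections were profiled with Visium, which captures polyadenylated RNA on barcoded spots. Each deposited matrix holds unnormalized whole-number UMI counts. According to the matrix headers and per the submitters' processing notes, Space Ranger 1.3.1 produced them with mm10 as reference.

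UMIs were summed over the spots of a section and tested with edgeR 4.0.16 in R 4.3.3: TMM scaling, filterByExpr, quasi-likelihood F test, Benjamini-Hochberg adjustment over all genes tested, threshold 0.05. For position, each section was split into marker-rich spots (top 10% by the mean z-score of log1p UMIs per 10000) and all others, with the section as a block, and the interaction asked whether the split differed between genotypes. Spots under 500 UMIs (1 spot) were left out of spot sets. The labels number the mice and say nothing of how sections were processed, so whole-section p-values rest on the spread between 2 sections a group. Position and interaction p-values rest on how the difference between rich and other spots varied between the 2 sections of a group. In both, edgeR estimated the spread of a gene with the help of all genes tested. The p-values thus do not measure the spread of a gene over 2 mice alone.

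The members and all lists were chosen with earlier results of these data known. Named genes were the members, up to 6 called genes of each other list with the smallest p and a mean of at least 5 CPM (counts-per-million), the 8 genes most like Dnase1 in each genotype, and markers of the segments holding Dnase1. A gene among those most like Dnase1 is not reported here. The scripts were tested on simulated data with 200 changed genes, and every gene changed 2-fold or 4-fold was recovered (100%) in the whole-section and the Control position comparison. False calls were 0% in the whole-section and 4.76% in the Control position comparison. These values do not cover the Uox_KO position or the interaction comparison. Replicate numbers are not known to pair sections: with 2 pairs, same-numbered sections correlated at 0.126 in their deviations over genes. Alternatives were RLE scaling, no scaling, DESeq2 1.42.0, other filters, other spot sets and scores, other thinning depths, a replicate block and leaving out each section.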

Additional observations from a re-analysis of the deposited data

Results flagged for a closer look

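For 5 members the difference between marker-rich and other spots was itself different between genotypes, by edgeR's interaction test at an adjusted p under 0.05. Over all genes tested, 17.2% were called for this interaction in S1/S2-rich spots and 29.3% in macrophage-rich spots. The rich spots also differed between genotypes in the levels of their own markers, as given above. How the members were chosen may bear on these values too. For Dnase1 the Uox_KO minus Control value was 0.91 log2 units in proximal S1/S2-rich spots and -1.81 in macrophage-rich spots. For Rnase4 it was -1.14 in S1/S2-rich and 0.87 in macrophage-rich spots, opposite in sign to Dnase1 in both. For Dnase2a it was 0.50 in macrophage-rich spots, a call lost without Control section 1.

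For Rnaset2b the value was 0.31 in S1/S2-rich and -0.38 in macrophage-rich spots. Both of these calls were lost without TMM (0.06 and -0.00, adjusted p = 0.68 and 0.98) and with either Control section left out (adjusted p = 0.16 and 0.12 in S1/S2-rich, 0.13 and 0.073 in macrophage-rich spots). For Dnase1l3 the value was -2.06 in S1/S2-rich spots, on 4 to 13 UMIs a section. That call was lost without Control section 1 (-1.50) or without Uox_KO section 1 (-2.18). It was also lost with the top 5% of spots (-2.18, edgeR adjusted p = 0.14).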

How the results depend on the processing

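Leaving out the scaling factors, a choice made after the data were seen, moved Dnase1 to -3.53, Dnase2a to 1.10 and Rnaset2b to 0.39 on the log2 scale, and left 1 DNase, 3 RNases and 1 sensing gene lower. It also reversed Rnaset2b in Uox_KO macrophage-rich (0.14) and injured tubule-rich spots (0.20) and in Control T and NK-rich (0.10) and stroma-rich spots (0.20). The lower sensing genes also numbered 1 with DESeq2, with the replicate block and without mitochondrial transcripts, and 1 to 2 with a section left out. With the share score, S1/S2-rich spots of Uox_KO reversed for Dnase2a (-0.42) and Rnaset2b (0.12). Without spots rich in fat, urothelium or stroma markers Dnase1 was -3.63 and Rnaset2b 0.23. Without macrophage-rich, T and NK-rich or stroma-rich spots Dnase1 was -3.67, Dnase2a 0.76 and Rnaset2b 0.20. In S1/S2-rich spots alone Dnase1 was -3.01, Dnase2a 0.59, Rnase4 0.79 and Rnaset2b 0.40, and Dnase1l3 was too sparse for a value. These last 2 choices were made after the data were seen. The Dnase2a macrophage interaction ranged from 0.46 to 0.56 with a section left out.

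Spots with a Dnase1 UMI made up 84.6% and 80.8% in Control and 12.3% and 14.9% in Uox_KO at 2000 UMIs a spot. At 10000 UMIs they made up 99.96% and 99.88% against 41.5% and 46.2%, and unthinned 99.8% and 99.9% against 51.1% and 58.4%.

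With the replicate block, 8 DNases were higher and 2 lower, 14 RNases higher and 9 lower, and 13 sensing genes higher and 1 lower, and Dnase1 stayed at -3.80. With the numbers crossed, also tried after the data were seen, the counts were 8 and 2, 15 and 9, and 13 and 2. Dnase1l3 rests on 65 to 142 UMIs a section, and Trex1 had 0.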
